A study of Homo sapiens with 6 samples.

Results

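The HLA class II antigen presentation genes and their transactivator CIITA were followed after CRISPR-Cas9 editing of A375, a long-established human melanoma line with mutant, active BRAF. The set held 10 genes, CD74, CIITA, HLA-DRA, HLA-DRB1, HLA-DMA, HLA-DMB, HLA-DOA, HLA-DPA1, HLA-DPB1 and HLA-DQA1, found by symbol among the 16934 genes of the deposited count table. All 10 were among the 13930 genes with enough counts for a test. RNA-seq covered 3 libraries of cells given Alt-R Cas9 with a non-targeting sgRNA, called control here, and 3 libraries of cells given an sgRNA against POLK, the gene for the error-prone DNA polymerase kappa. All cells were grown in DMEM with fetal bovine serum, and no cytokine or drug is named in the labels for either group. The labels do not say whether the libraries of a group were grown or edited separately, so the spread between them may be technical and a difference between edited populations and an effect of the POLK sgRNA cannot be told apart. The genes were selected on their known role and on their CPM in these same 6 libraries, so their own differences between the groups are given as a description without a test, and tests are kept to other genes.

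Class II molecules are pairs of an alpha and a beta chain that display peptides from endosomes to CD4+ T cells. They assemble with the invariant chain, CD74, which blocks the peptide groove until endosomal proteases cut it down, after which HLA-DM exchanges the remaining fragment for peptide and HLA-DO restrains HLA-DM. CIITA binds no DNA itself. It is recruited to the conserved X and Y boxes upstream of these genes by the RFX, CREB and NF-Y factors, is made constitutively in professional antigen presenting cells and is induced by interferon-gamma in most others, while a share of melanomas transcribe it without added interferon.

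The X and Y boxes could be read in the RefSeq promoter sequences (GRCh38.p14, the 250 bases before each gene's annotated start). They are shown because they are the element through which CIITA acts and because the genes below that carry it differed widely in how far apart their groups lay. The sequences are printed 5′ to 3′ on the gene's strand, and the capitals mark the X core searched (AGNNACNNA) and the Y core searched (ATTGG, the CCAAT box on the other strand).
HLA-DRB1, chr6:32589880-32589937, minus strand: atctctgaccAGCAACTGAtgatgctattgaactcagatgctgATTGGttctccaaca
HLA-DRB5, chr6:32530363-32530420, minus strand: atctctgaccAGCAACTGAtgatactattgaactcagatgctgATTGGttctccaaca
HLA-DQA1, chr6:32637294-32637352, plus strand: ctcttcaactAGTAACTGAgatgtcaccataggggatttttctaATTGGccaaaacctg
HLA-DQB1, chr6:32666731-32666788, minus strand: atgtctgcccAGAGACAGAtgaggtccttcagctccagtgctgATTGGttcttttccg
HLA-DOA, chr6:33009644-33009702, minus strand: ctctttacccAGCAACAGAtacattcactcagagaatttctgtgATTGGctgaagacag
HLA-DMA, chr6:32953162-32953220, minus strand: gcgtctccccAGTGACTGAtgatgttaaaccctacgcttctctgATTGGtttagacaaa
HLA-DPA1, chr6:33073701-33073758, minus strand: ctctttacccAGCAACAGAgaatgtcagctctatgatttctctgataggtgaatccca

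Apart from HLA-DPA1, a window was printed only where an X core lay 20 to 40 bases before a Y core, taking the spacing nearest 33. In these windows the X core began 33 or 34 bases before the Y core, a spacing that this choice partly sets. HLA-DMB and, outside the set, HLA-DQB2 held both cores without such a pair and are not printed. Of the 10 genes, 8 had a promoter in the RefSeq table, and HLA-DRA and CIITA had none. An X core was found in 6 of the 8, a Y core in 7 and an X core 20 to 40 bases before a Y core in 4 (HLA-DRB1, HLA-DQA1, HLA-DOA and HLA-DMA), counting both strands. Of all 35116 promoters 34.1% held the X core, 32.0% the Y core and 1.34% the spaced pair. The search letters were written after these promoters had been read, so the shares describe this set only. HLA-DPA1 carried the same X core and the same bases before it as HLA-DOA, without ATTGG at the usual distance.

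Total counts ranged from 42852645 to 56891905 per library. Levels are given as CPM, the count of a gene scaled to a common library size. POLK fell from 23.3 ± 0.84 to 18.2 ± 1.0 CPM (SD, n = 3 each; log2 fold change −0.36, SE 0.05; edgeR adjusted p = 7.9e-08). The 12 melanoma line markers summed to 4961 to 5083 CPM in control and 4824 to 4908 CPM with the POLK sgRNA, and of 11 tested 7 rose and 2 fell, where 32.8% of all genes tested rose and 31.6% fell (edgeR adjusted p under 0.05). The melanoma sum was mainly VIM (3670 and 3324 CPM), which fell, and SOX10 (1060 and 1155 CPM). The largest changes that passed were in SOX9, NGFR and S100A1, named after their values were seen. SOX9 fell by 3.78 on the log2 scale (SE 0.27), from 1.63 to 0.121 CPM, while NGFR rose by 1.76 (SE 0.08) and S100A1 by 1.60 (SE 0.07). The pigment gene TYR had 19 counts in control library 1 and 0 in the other 5 libraries, and DCT had 64, 2 and 1 counts in control. The 5 B cell markers in the table summed to 0.104 to 0.233 CPM in control and 0.263 to 0.286 CPM in POLK sgRNA libraries, with 4 of 5 under 0.1 CPM in both groups and none tested. The pan-leukocyte gene PTPRC was at 0.0269 and 0.0311 CPM. The 8 myeloid and dendritic markers in the table summed to 18.9 to 19.2 CPM in control and 59.5 to 61.7 CPM in POLK sgRNA libraries. That sum was mainly CD68 (13.99 and 39.3 CPM) and LYZ (3.42 and 19.7 CPM), and of 5 tested 3 rose and 1, CD14, fell. The 3 T and NK cell markers in the table summed to 0.187 to 0.271 and 0.0817 to 0.299 CPM, and the 4 endothelial markers to 2.93 to 3.90 and 5.57 to 6.04 CPM. Of these 4, 3 rose and CDH5, a junction gene named after its values were seen, fell from 0.361 ± 0.051 to 0.0343 ± 0.045 CPM (SD, n = 3 each; edgeR adjusted p = 2.4e-06). No marker in the table was at 0 in all libraries. The sums of the myeloid and endothelial lists were higher with the POLK sgRNA although 1 marker of each fell, and their part in the class II values was not tested.

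CD74 was the most abundant transcript of the set and was higher with the POLK sgRNA. It lies on chromosome 5 (ENSG00000019582, 150401637 to 150412929, minus strand), away from the HLA genes. Its levels were 1051, 1086 and 1114 CPM in the control libraries and 1755, 1740 and 1743 CPM in the POLK sgRNA libraries. The groups did not overlap, and the POLK sgRNA libraries lay close together. The means were 1084 ± 31.7 CPM and 1746 ± 8.33 CPM (SD, n = 3 each), a log2 fold change of 0.69 (SE 0.02) or 1.61-fold. In RNA from whole cultures, more cells with a transcript and more of it per cell cannot be told apart.

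CIITA, the transactivator on chromosome 16 (ENSG00000179583, 10866222 to 10943021, plus strand), had a smaller fold change. Its levels were 56.9, 52.9 and 50.1 CPM in control and 64.8, 62.6 and 63.1 CPM in POLK sgRNA libraries. The lowest POLK sgRNA library lay above the highest control library by less than the range of the control group. The means were 53.3 ± 3.43 CPM and 63.5 ± 1.14 CPM (SD, n = 3 each), and the log2 fold change was 0.26 (SE 0.04). Of 100-base words from its principal GENCODE transcript, 14.3% also occur in an overlapping annotated transcript, AC133065.3, and its exons overlap those of DEXI on the other strand, so part of its counts is uncertain.

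**Figure D1:**
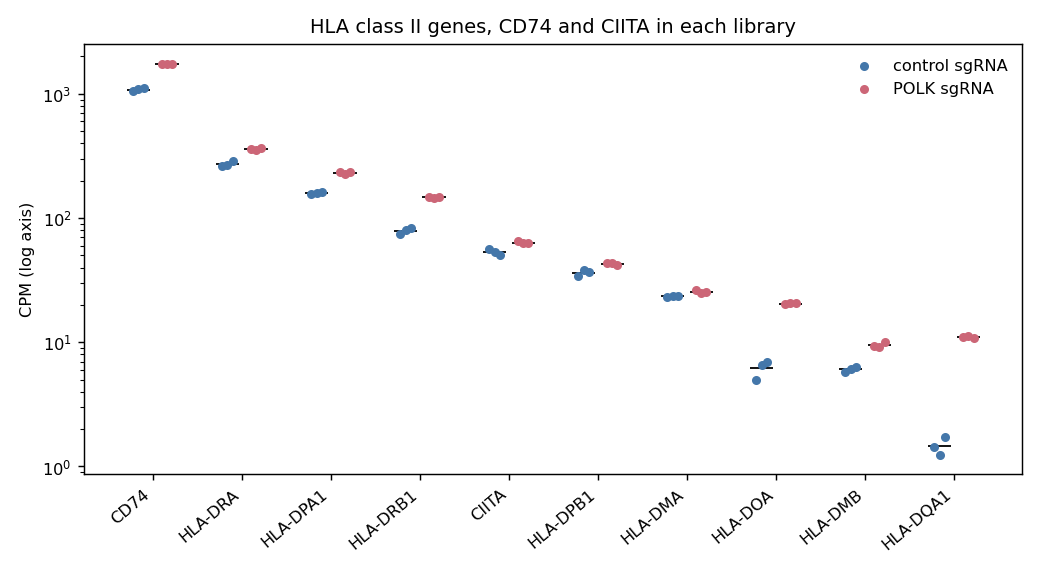
Level of each gene in CPM (log axis) in the 3 control sgRNA libraries (blue) and the 3 POLK sgRNA libraries (red), with black lines at the group means and genes ordered by control level. Every red group lies above its blue group, with the widest gaps at HLA-DQA1 (1.47 against 11.04 CPM) and HLA-DOA (6.19 against 20.5 CPM).

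Across the set the POLK sgRNA libraries lay above the control libraries without overlap in 10 of 10 genes, where 34.6% of all genes tested did so in this direction. The median log2 fold change of the 10 genes was 0.60, and that of all genes tested was 0.0083. Because the set was chosen with this comparison known, nothing is read from that count. Only HLA-DQA1 and HLA-DOA were at least 2-fold higher, which 3.63% of all genes tested were. The coefficient of variation within a group ran from 0.477% to 17.4%, and was highest for HLA-DOA and HLA-DQA1 in control cells.

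HLA-DR is the main class II isotype on most cells. HLA-DRA, its alpha chain gene on chromosome 6 (ENSG00000204287, 32439842 to 32445046, plus strand), had 262.6, 268.9 and 285.7 CPM in control and 360.9, 351.5 and 364.1 CPM in POLK sgRNA libraries. Its log2 fold change was 0.40 (SE 0.03), from 272 ± 11.9 to 359 ± 6.54 CPM (SD, n = 3 each). The groups were well separated, and control library 3 was the highest of its group.

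HLA-DRB1, the gene of the beta chain that pairs with it (ENSG00000196126, chromosome 6, 32578769 to 32589848, minus strand), was further apart between the groups. It had 74.0, 80.0 and 82.9 CPM in control and 147.1, 145.7 and 148.3 CPM in POLK sgRNA libraries. The means of 79.0 ± 4.52 and 147.0 ± 1.29 CPM (SD, n = 3 each) gave a log2 fold change of 0.90 (SE 0.03), or 1.86-fold. On the scale of CPM per kilobase of principal transcript, the ratio of HLA-DRA to HLA-DRB1 was 3.31 ± 0.09 in control and 2.34 ± 0.02 in POLK sgRNA libraries, without overlap.

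The DR beta counts are the first place where reads of close relatives could be divided between genes. HLA-DRB5, a second DR beta gene present on some haplotypes and outside the described set, had 22.8 ± 1.75 CPM in control and 44.9 ± 0.71 CPM with the POLK sgRNA (SD, n = 3 each), and it rose by a log2 fold change of 0.98 (SE 0.04; edgeR adjusted p = 2.5e-19). Of 50-base words from the HLA-DRB1 transcript 8.64% also occur in HLA-DRB5, and of 100-base words 0%, in the reference alleles. The sources used here give neither the alleles of A375 nor the read length. HLA-DRB1 took 77.0 to 78.4% of the summed level of both genes in control libraries and 76.3 to 77.1% with the POLK sgRNA. Summed, the pair went from 101.8 ± 6.08 to 191.9 ± 0.88 CPM, so the summed level differed between the groups as well.

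HLA-DQA1, the DQ alpha chain gene (ENSG00000196735, chromosome 6, 32628179 to 32647062, plus strand), stood furthest apart between the groups and was the least abundant gene of the set in control cells. It had 61, 68 and 83 counts in control and 636, 525 and 527 counts in POLK sgRNA libraries, or 1.424, 1.245 and 1.728 CPM against 11.1, 11.2 and 10.8 CPM. The log2 fold change was 2.92 (SE 0.10), or 7.56-fold. Its close relative HLA-DQA2, outside the set, went from 1.26 ± 0.37 to 9.98 ± 0.45 CPM (SD, n = 3 each) and rose by 2.98 (SE 0.11; edgeR adjusted p = 1.7e-20). Of 50-base words from the HLA-DQA1 transcript 9.53% occur in HLA-DQA2, and of 100-base words 2.41%. HLA-DQA1 took 50.6 to 57.5% of the summed level in control libraries and 51.1 to 54.0% of it with the POLK sgRNA, and the sum went from 2.73 ± 0.60 to 21.0 ± 0.39 CPM. Which of both genes the reads came from is therefore uncertain, while the summed level differed as much as either.

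The DQ beta chain gene had a smaller fold change than the DQ alpha genes. HLA-DQB1, outside the set, rose from 23.8 ± 0.89 to 38.8 ± 1.61 CPM (SD, n = 3 each), a log2 fold change of 0.70 (SE 0.04; edgeR adjusted p = 1.7e-16). On the per-length scale HLA-DQA1 was at 0.0672 ± 0.012 of HLA-DQB1 in control and at 0.311 ± 0.0062 in POLK sgRNA libraries. By these counts HLA-DQA1 was the lower of both genes in every library. Reads shared with HLA-DQA2 and the unknown alleles of A375 leave the true ratio uncertain.

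HLA-DP is the third isotype. HLA-DPA1, its alpha chain gene (ENSG00000231389, chromosome 6, 33064569 to 33080775, minus strand), had 154.9, 159.7 and 161.6 CPM in control and 233.7, 228.2 and 236.4 CPM in POLK sgRNA libraries, a log2 fold change of 0.55 (SE 0.02). HLA-DPB1, the beta chain gene that starts within it on the other strand (ENSG00000223865, 33075926 to 33087201, plus strand), had 34.3, 38 and 36.6 CPM in control and 43.4, 43.2 and 42.0 CPM in POLK sgRNA libraries, a log2 fold change of 0.24 (SE 0.04). The larger difference here lay with the alpha chain, the reverse of HLA-DR. The per-length ratio of HLA-DPA1 to HLA-DPB1 was 4.01 ± 0.15 in control and 4.98 ± 0.16 in POLK sgRNA libraries (SD, n = 3 each). Their annotated exons overlap by 96 bases of the HLA-DPB1 transcript (6.15%), and the library kit does not mark strand.

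HLA-DM, the peptide exchange factor, is made of the HLA-DMA and HLA-DMB chains. HLA-DMA (ENSG00000204257, chromosome 6, 32948613 to 32969094, minus strand) was the closest of the 10 genes between the groups, with 23.3, 23.6 and 23.6 CPM in control and 26.3, 25.0 and 25.5 CPM in POLK sgRNA libraries and a log2 fold change of 0.12 (SE 0.04). HLA-DMB (ENSG00000242574, 32934629 to 32941070, minus strand) had 5.81, 6.04 and 6.31 CPM in control and 9.36, 9.10 and 10.02 CPM in POLK sgRNA libraries, a log2 fold change of 0.65 (SE 0.07). The ratio of HLA-DMA to HLA-DMB per length was 4.83 ± 0.17 in control and 3.36 ± 0.17 in POLK sgRNA libraries (SD, n = 3 each). An annotated transcript that reads through both genes (AL645941.2) holds 11.6% of the 50-base words of HLA-DMA and 29% of those of HLA-DMB, so both values carry that uncertainty.

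HLA-DOA, the alpha chain gene of the HLA-DM inhibitor (ENSG00000204252, chromosome 6, 33004178 to 33009612, minus strand), was the other gene with a large difference. Its levels were 4.97, 6.61 and 6.997 CPM in control and 20.3, 20.7 and 20.5 CPM in POLK sgRNA libraries. Control library 1 was the lowest, and the POLK sgRNA libraries were nearly equal. The log2 fold change was 1.71 (SE 0.08), or 3.28-fold, and none of its 50-base words occur in another annotated gene. Its partner HLA-DOB, outside the set, was close to undetected, at 4, 10 and 3 counts in control and 21, 14 and 20 counts in POLK sgRNA libraries, and rose by 1.60 (SE 0.40; edgeR adjusted p = 0.00068). HLA-DOB shares 36.5% of its 50-base words with an annotated read-through transcript.

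**Figure D2:**
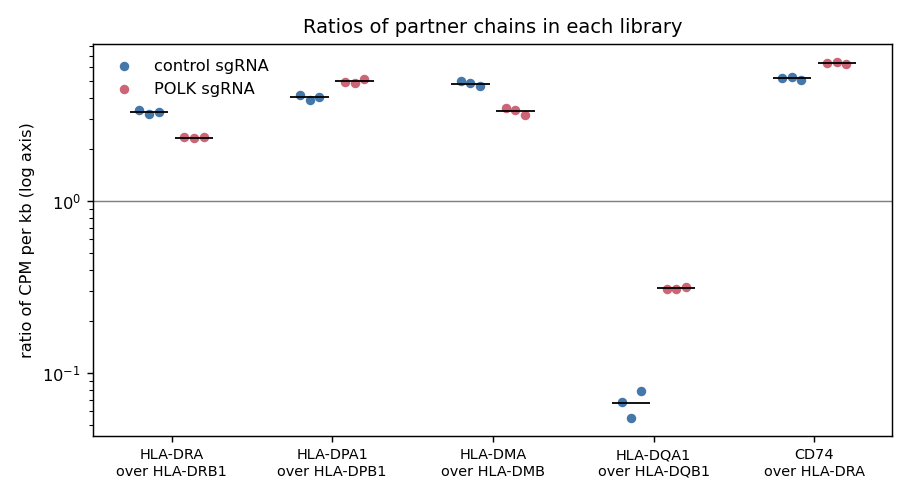
Ratios of partner genes on the scale of CPM per kilobase (log axis) in each control sgRNA (blue) and POLK sgRNA (red) library, with black lines at group means and a grey line at 1. HLA-DRA over HLA-DRB1 and HLA-DMA over HLA-DMB are lower in red, and the other 3 ratios, among them CD74 over HLA-DRA (5.19 against 6.35), are higher.

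On the per-length scale the order of the transcripts shifted in its lower part. In control cells CD74 led at 1105 ± 32.3 CPM per kilobase, followed by HLA-DRA (213 ± 9.32), HLA-DPA1 (93.1 ± 2.03), HLA-DRB1 (64.3 ± 3.68), HLA-DPB1 (23.3 ± 1.19), HLA-DMA (20.9 ± 0.14), HLA-DMB (4.33 ± 0.18), HLA-DOA (1.78 ± 0.31) and HLA-DQA1 (0.92 ± 0.15; SD, n = 3 each). Each of these neighbours differed by more than the SD of either. With the POLK sgRNA the first 6 kept their order, and HLA-DQA1 (6.94 ± 0.15), HLA-DMB (6.80 ± 0.34) and HLA-DOA (5.87 ± 0.06) followed, where HLA-DQA1 and HLA-DMB did not differ beyond their spread. CIITA is left out of this order because its annotated principal transcript, at 16059 bases, sets its level per length.

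A list of other genes of the class II region was drawn up with earlier results of these data known, so it is no independent evidence of direction, and 10 of its genes could be tested. All 10 rose and none fell (quasi-likelihood F test of edgeR at an adjusted p under 0.05), where 32.8% of all genes tested rose and 31.6% fell. Their median log2 fold change was 0.65. The number that rose was 9 without POLK sgRNA library 1. It was 9 among genes with a mean of 1 CPM or more, where HLA-DOB was too low to be tested. It was 7 with near-identical pairs summed, where HLA-DRB5, HLA-DQA2 and HLA-DQB2 are merged into other rows. Beside the 5 class II genes these were TAP1 and TAP2, which carry peptides to class I molecules, the immunoproteasome subunit genes PSMB8 and PSMB9, and the chromatin reader gene BRD2. TAP1 rose from 29.6 ± 0.54 to 42.8 ± 0.94 CPM (SD, n = 3 each; log2 fold change 0.53, SE 0.04) and PSMB9 from 16.9 ± 0.55 to 25.6 ± 0.54 CPM (0.60, SE 0.05). HLA-DQB2 rose by 0.77 (SE 0.10). BRD2 and TAP2 rose least, by 0.12 (SE 0.02) and 0.18 (SE 0.06).

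**Figure D3:**
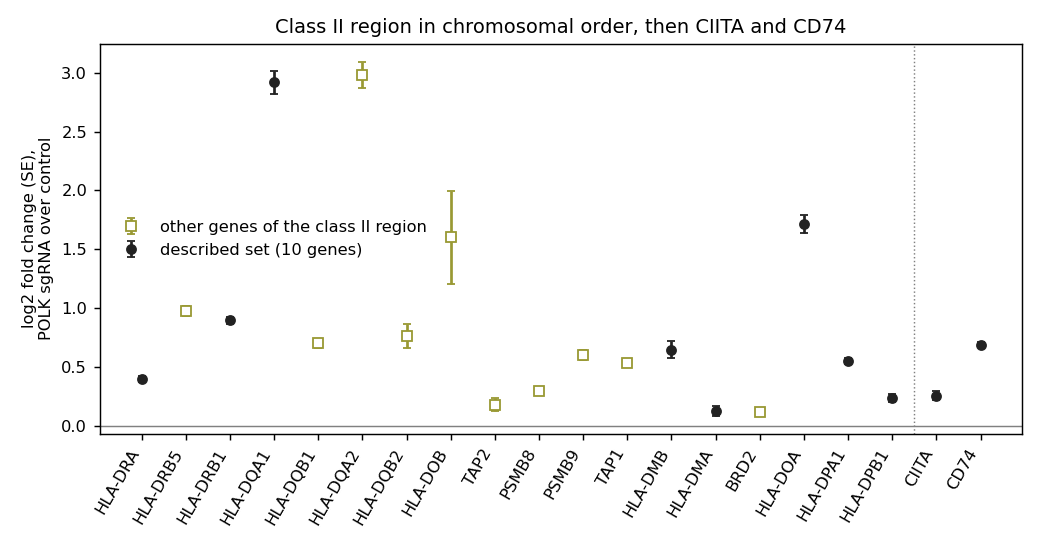
Log2 fold change (POLK sgRNA over control, bars show SE) of the tested genes between HLA-DRA and HLA-DPB1 in chromosomal order, with CIITA and CD74 right of the dotted line. Filled circles are the 10 described genes and open squares the other genes of the region. All values lie above 0, and HLA-DQA1 and HLA-DQA2 (2.92 and 2.98) stand highest.

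Genes beside the class II region were counted in the same way, without a test of their difference from it. In the 1 Mb before HLA-DRA, 14 of 46 tested genes rose and 8 fell (median 0.053 on the log2 scale), and in the 1 Mb after HLA-DPB1, 14 of 22 rose and 2 fell (median 0.12), against 32.8% and 31.6% of all genes tested. That median was as large as the log2 fold changes of BRD2 and HLA-DMA inside the region (0.12 each). Around CIITA 3 of 13 tested genes rose and 5 fell within 1 Mb. Of its nearest neighbours, NUBP1 had a log2 fold change of 0.12 (SE 0.04), DEXI 0.03 (SE 0.06) and CLEC16A −0.10 (SE 0.03). EMP2 and TVP23A did not pass, at −0.01 (SE 0.03) and 0.51 (SE 0.28). RMI2 rose by 0.40 (SE 0.10; edgeR adjusted p = 0.014), beside 0.26 for CIITA. Around CD74 9 of 22 rose and 6 fell, with TCOF1 at 0.08 (SE 0.02), RPS14 at 0.13 (SE 0.02) and the growth factor receptor gene PDGFRB at 0.65 (SE 0.06), while CSF1R, NDST1 and SYNPO had −0.07, −0.02 and −0.04.

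The complex that recruits CIITA held genes that moved in both directions. Of 7 members, 2 rose and 1 fell, against 32.8% and 31.6% of all genes tested. The list median was 0.033 on the log2 scale. The RFX subunit gene RFX5 rose from 131.5 ± 2.96 to 146.3 ± 1.17 CPM (SD, n = 3 each; log2 fold change 0.15, SE 0.02; edgeR adjusted p = 2.2e-06). RFXAP and RFXANK, the other RFX subunit genes, had 0.14 (SE 0.07) and 0.03 (SE 0.03) and did not pass. The NF-Y subunit gene NFYB rose from 18.8 ± 0.59 to 26.1 ± 1.14 CPM and NFYA fell from 51.7 ± 1.84 to 43.5 ± 0.79 CPM (SD, n = 3 each), while NFYC and CREB1 did not pass, at −0.04 (SE 0.03) and −0.02 (SE 0.04). NFYB lies on chromosome 12 among 49 tested genes within 5 Mb whose median was 0.58. The part of that chromosomal shift in its value was not tested. Without POLK sgRNA library 1, NFYC also fell, which made 2 members that fell.

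Genes for coactivators and chromatin partners of CIITA moved in both directions. Of 11, 7 fell and 3 rose, against 31.6% and 32.8% of all genes tested, and the list median was −0.15. The acetyltransferase gene CREBBP fell from 122.9 ± 2.08 to 100.4 ± 3.86 CPM (log2 fold change −0.29, SE 0.03), the remodelling ATPase gene SMARCA4 from 615 ± 7.47 to 554 ± 0.66 CPM and the arginine methyltransferase gene CARM1 from 207.6 ± 3.73 to 184.7 ± 3.27 CPM (SD, n = 3 each). EP300, KAT2B and the histone deacetylase genes HDAC1 and HDAC2 fell too and were named after their values were seen. Their log2 fold changes were −0.13 (SE 0.04), −0.28 (SE 0.05), −0.15 (SE 0.02) and −0.16 (SE 0.02). CCNT1, a cyclin gene of transcription elongation, rose by 0.53 (SE 0.03). It also lies on chromosome 12, among 112 tested genes within 5 Mb with a median of 0.50. The other 2 that rose, CDK9 and SIN3A, passed narrowly at 0.06 each (SE 0.03 each) and were named after their values were seen. The count that rose was 1 without control library 1, without control library 2 or without POLK sgRNA library 3. EZH2, which silences CIITA in some tumours, did not pass, at −0.03 (SE 0.03).

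Most genes that carry the interferon-gamma signal to CIITA did not pass the test. Of 12 tested, 2 rose and 1 fell, against 32.8% and 31.6% of all genes tested, and the median log2 fold change was 0.0065. IRF1, a transcription factor that acts at the CIITA promoter, had 5.40 ± 0.61 and 5.57 ± 0.42 CPM (SD, n = 3 each; log2 fold change 0.04, SE 0.09). The receptor gene IFNGR1 fell from 14.9 ± 0.12 to 13.1 ± 0.41 CPM (−0.19, SE 0.05), and IFNGR2 did not pass (−0.07, SE 0.04). IRF2 rose by 0.13 (SE 0.04) and the phosphatase gene PTPN11 by 0.48 (SE 0.02), the latter among 71 tested genes within 5 Mb on chromosome 12 with a median of 0.61. Without control library 3 IFNGR2 fell too, making 2 that fell, and without POLK sgRNA library 2 IRF2 did not pass (edgeR adjusted p = 0.069), leaving 1 that rose. IFNG and IRF8 were not found by symbol among the genes of the deposited count table, so no value can be given for them.

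**Figure D4:**
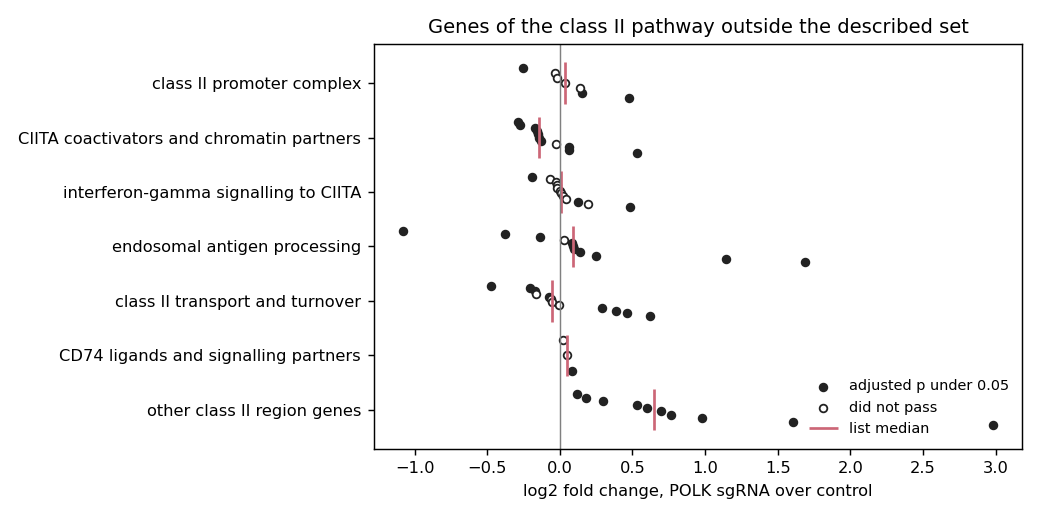
Log2 fold change (POLK sgRNA over control) of each tested gene in the 7 lists, filled where the adjusted p was under 0.05 and open where it was not, with a red line at the list median. The medians of the first 6 lists lie between −0.15 and 0.091, and that of the other class II region genes at 0.65.

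Genes of endosomal antigen processing moved both ways. Of 11 tested, 7 rose and 3 fell, against 32.8% and 31.6% of all genes tested, and the list median was 0.091. CTSS, the protease gene best known for trimming the invariant chain in antigen presenting cells, rose from a low level, 0.871 ± 0.098 to 2.83 ± 0.51 CPM (SD, n = 3 each; 1.69, SE 0.16). The cysteine protease inhibitor gene CST3 rose from 65.1 ± 1.65 to 143.7 ± 1.75 CPM (1.14, SE 0.03), and lies on chromosome 20 among 22 tested genes within 5 Mb with a median of 0.62. CTSB rose by 0.25 (SE 0.03). NPC2, a lysosomal lipid carrier gene, fell from 76.7 ± 2.86 to 58.9 ± 0.96 CPM, and the proteases CTSV and LGMN, named after their values were seen, fell by 1.08 (SE 0.13) and 0.14 (SE 0.05) on the log2 scale. IFI30, which reduces disulphide bonds in endosomes, was too low for a test, at 0.0997 and 0.115 CPM. The number that rose was 4 without control library 1.

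Of 12 tested genes of class II transport and turnover, 4 rose and 4 fell, close to the 32.8% and 31.6% of all genes tested. The list median was −0.056. The tetraspanin genes CD63 and CD82 rose by 0.47 (SE 0.02) and 0.62 (SE 0.09), and the adaptor gene AP1M1 by 0.29 (SE 0.02), while the adaptor gene AP2M1 fell from 565 ± 10.9 to 406 ± 4.2 CPM (SD, n = 3 each). CD63 lies among chromosome 12 genes with a median of 0.62 within 5 Mb and AP2M1 among chromosome 3 genes with a median of −0.36. The ligase genes MARCH1 and MARCH8, which mark class II molecules for degradation, did not pass, at −0.16 (SE 0.14) and −0.06 (SE 0.05). Of the CD74 ligands and partners 3 could be tested, and CD44, the signalling partner of CD74, rose by 0.08 (SE 0.02), while its ligands MIF (0.02, SE 0.03) and DDT (0.05, SE 0.17) did not pass.

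The genes around the 10 described genes had medians between −0.022 and 0.068, beside the 0.0083 of all genes tested. The tested genes within 5 Mb, class II region genes left out, had a median log2 fold change of 0.057 or 0.068 around the HLA genes (162 or 153 genes), 0.014 around CIITA (39 genes) and −0.022 around CD74 (52 genes).

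Among the 12334 other genes whose mean reached 1 CPM, those with the profile most like that of HLA-DRA over the 6 libraries were WDR45, FGD4, MANBAL, SPARC and ATG4C, by Euclidean distance of centred log2 CPM (0.0367 to 0.0584). For CIITA they were TMEM56, RECQL5, DMTF1, FLCN and CFLAR (0.0462 to 0.0625). The distance mostly reflects the difference between the groups, and it is given as a description over 6 libraries.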

How the data were processed

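Raw gene counts were deposited as 1 table for all 6 libraries. Per the labels' protocols, mRNA libraries were made with the TruSeq RNA V2 kit. FastQC, Trimmomatic, STAR and DESeq2 with build GRCh38 are named per the submitters' processing notes, while the counting tool, its settings and the read length are unstated (not given in the sources used here). Columns were matched to samples by name and grouped by sgRNA.

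In R 4.3.3, low genes were removed by filterByExpr (counts of at least 10, totals of at least 15) and libraries scaled by TMM. Groups were compared with the quasi-likelihood F test of edgeR 4.0.16 (robust, two-sided, Benjamini-Hochberg over all genes tested, threshold 0.05), also run on simulated data. There it recovered 40.8% of 1.1-fold, 76% of 1.25-fold, 93.9% of 1.5-fold and 96% of 2-fold changes. It called 10 of 13640 unchanged genes. A gene that did not pass may thus still differ by a small amount. Each standard error is the size of the fold change (log2) divided by the root of F. CPM use TMM-scaled library sizes. Positions, principal (APPRIS) transcripts and shared 50- and 100-base words came from GENCODE 29 (GRCh38), and promoters from RefSeq.

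Members and lists were chosen with earlier results of these data known. Named were all members, POLK, every gene of the promoter complex, the 4 smallest p-values in other lists, the likest genes and the neighbours, and, chosen after their values were seen, a few more genes of known role. Alternatives were DESeq2 size factors, library size alone, no filter, a mean of 1 CPM, DESeq2 1.42.0, limma-voom (limma 3.58.1), a replicate block, each library left out and, chosen after seeing the data, 3 near-identical gene pairs summed (HLA-DRB1 with HLA-DRB5, HLA-DQA1 with HLA-DQA2, HLA-DQB1 with HLA-DQB2). Marker lists covered melanoma lines, B cells, myeloid and dendritic cells, T and NK cells and endothelium. The result of 1 gene of the interferon-gamma list is not reported here.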

Additional observations from a re-analysis of the deposited data

How the results depend on the processing

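All 10 class II genes kept their direction and lay above control without overlap under each of the 14 alternatives. Leaving out a library can hardly make separate groups overlap, and the other settings mostly rescale whole libraries, so nothing is read from that count. None of their log2 fold changes moved by more than the root of the summed variances of log2 CPM in both groups. HLA-DQA1 ranged from 2.80 to 3.05 on the log2 scale, HLA-DOA from 1.59 to 1.80, CIITA from 0.21 to 0.30 and HLA-DMA from 0.11 to 0.14. In the list of CIITA coactivators and chromatin partners, 3 genes rose in the main fit. That number was 1 with DESeq2 size factors, with DESeq2 and with the replicate number as a block. It was 1 to 2 when a library was left out. Leaving out each library in turn gave 4 to 7 endosomal genes that rose, 1 to 2 interferon-gamma genes that rose and 1 to 2 that fell, and 1 to 2 promoter complex genes that fell. The block used replicate numbers, which the labels do not say pair the samples. Deviations of same-numbered libraries correlated at −0.030, −0.029 and −0.037, and no library correlated best with its own number. All correlations between the groups lay between −0.037 and 0.038, too small to decide whether the numbers pair samples. Of genes that had not passed, 3 changed sign when a library was left out: CREB1 ranged from −0.056 to 0.021 (without control library 2), DDT from −0.067 (without POLK sgRNA library 3) to 0.21, and MIF from −0.0083 (without POLK sgRNA library 3) to 0.066, with −0.00048 without control library 1. RFXAP passed with library size alone (adjusted p = 0.042) and without POLK sgRNA library 3 (adjusted p = 0.043; edgeR's quasi-likelihood test in both). The cause was not tested. Depth limits HLA-DOB, IFI30 and the lymphocyte markers, which rest on few counts.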
